A study of Saccharomyces cerevisiae with 4 samples.

Results

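Most open chromatin of budding yeast lies between genes, and the peaks described here are the minority whose highest point fell inside a coding gene. They were the peaks on chromosomes II, VII, IX, X, XIII, XV and XVI whose summit lay between the start and the end of a protein-coding gene of assembly R64, the assembly that the sacCer3 build of the deposited lists names. They numbered 928 of the 4376 peaks on these 7 chromosomes and of the 9663 peaks of the whole series, counted over 4 libraries. No measured height entered the rule. The 9 chromosomes left out include IV, V, VIII and XI, which earlier results of these data had set apart for their number of peaks in the mutant libraries. Peaks there were more numerous in the mutant libraries, as on XI with 345 and 288 against 125 and 107. On V only swc4Δ replicate 2 stood clearly higher, with 137 and 175 in swc4Δ against 136 and 130 in WT. The values below therefore hold for the 7 chromosomes unless others are named.

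The assay was ATAC-seq, where Tn5 transposase marks accessible DNA by inserting adapters, on mid-logarithmic cultures of the laboratory strain BY4741 grown at 30 °C. There were 2 libraries of wild-type cells (WT) and 2 of cells deleted for SWC4 (swc4Δ), and the labels named no other genetic change or treatment. Whether the replicates were separate cultures was not stated, and p-values measure only the spread between these libraries, which may be technical. Swc4 is a subunit that the SWR1 remodeller, which places the histone variant Htz1 in nucleosomes, shares with the histone acetyltransferase NuA4. SWC4 itself (YGR002C, chromosome VII, 498476 to 499906) held 0 summits and was touched by 0 peaks in the 4 libraries, so the deletion could not be checked in the peak lists.

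In yeast, the nucleosome-depleted stretch that ATAC-seq picks up is found mainly in the promoter, just upstream of the coding sequence, while the body of a gene is usually covered by regularly spaced nucleosomes. SWR1 is known to act on the nucleosomes that flank the promoter gap. Neighbouring genes are close together in this compact genome, and many short reading frames known only by a systematic name overlap the promoter of another gene. The deposited fold used throughout is the authors' own. Its values match a ratio of the pileup at a summit to a single background level per library, with the same constant added to both. The pileup is a count of overlapping reads or fragments, and which of these was counted is not stated. The background was a pileup of 22.6 and 24.0 in the WT libraries and of 24.4 and 25.5 in the swc4Δ libraries. The lowest pileup that was called a peak was 37 and 38 in WT against 38 and 40 in swc4Δ, at folds of 1.61, 1.56, 1.54 and 1.55 in the same order. The background levels and the lowest called pileups were thus close in the 4 libraries, and read totals were not analysed here. Folds are set side by side between libraries only as each list gives them.

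Peaks inside coding genes were fewer in the mutant libraries on these chromosomes. There were 271 in WT replicate 1 and 361 in WT replicate 2, against 158 in swc4Δ replicate 1 and 138 in swc4Δ replicate 2. The groups did not overlap, and WT replicate 2 stood highest. WT averaged 316 ± 63.6 peaks (SD, n = 2) and swc4Δ 148 ± 14.1 (SD, n = 2). The exact permutation test of 2 against 2 libraries gave p = 0.333 (two-sided), which is the smallest p that this design allows, so no comparison of the genotypes here could pass 0.05. Peaks with a summit outside coding genes did not separate the genotypes: they numbered 909 and 704 in WT against 1091 and 744 in swc4Δ (exact permutation p = 0.667, two-sided). Replicate 1 of each genotype had the more numerous peaks outside genes.

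As a share of all peaks on the 7 chromosomes, peaks inside coding genes made up 22.97% and 33.9% in WT against 12.7% and 15.6% in swc4Δ. The means were 28.4% ± 7.73 (SD, n = 2) and 14.1% ± 2.12 (SD, n = 2), a difference of -14.3 points (exact permutation p = 0.333, two-sided). Coding genes cover 73.6% of these chromosomes, 4.45 of 6.05 Mb. Per Mb of coding sequence there were 60.9 and 81.1 such peaks in WT against 35.5 and 30.99 in swc4Δ, whereas 1 Mb outside coding genes held 569.0 and 440.7 peaks in WT against 683.0 and 465.8 in swc4Δ. In every library peaks were several times denser outside coding genes than inside. The difference in share was -8.82 points without WT replicate 2 and -4.81 points with a −log10 q of at least 5.

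The lower share in swc4Δ was seen on each of the 7 chromosomes taken alone: each swc4Δ library lay below each WT library on 7 of 7, in share and in number. Chromosome X had 28.8% and 41.4% in WT against 12.2% and 19.0% in swc4Δ, and chromosome XV, where the libraries were closest, 19.1% and 25.3% against 13.0% and 15.2%. On the other 9 chromosomes together the shares were alike, at 23.9% and 33.6% in WT against 23.7% and 33.0% in swc4Δ, and the same separation held on 4 of 9. Those 4 were I, III, VI and XIV. On XI the order was turned round, with 24.0% and 25.2% in WT against 47.2% and 47.9% in swc4Δ. Over all 16 chromosomes the genotypes overlapped, with 23.4% and 33.8% in WT against 18.8% and 26.6% in swc4Δ.

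**Figure D1:**
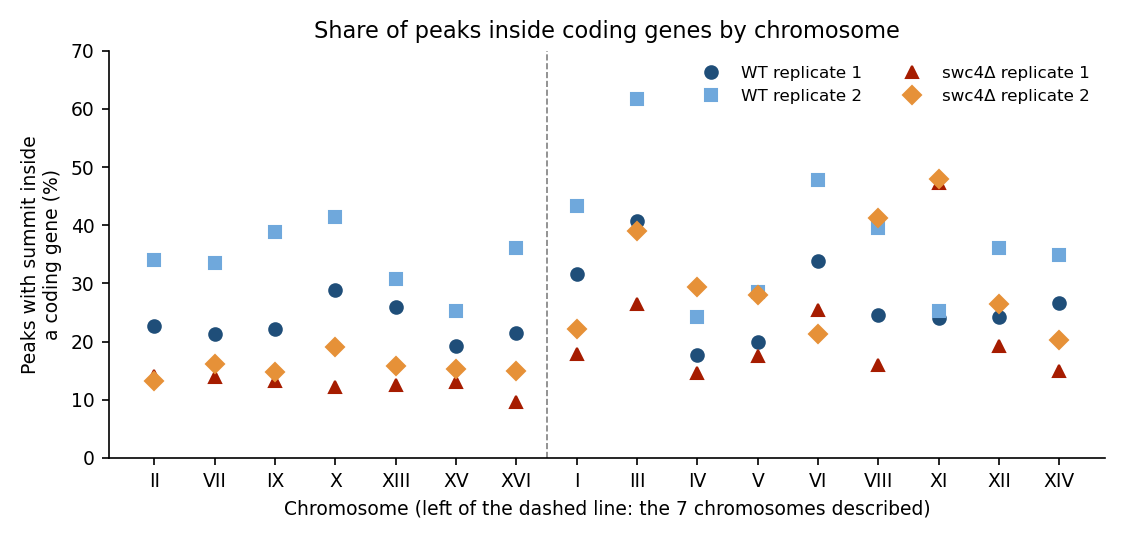
Share of peaks (percent, vertical axis) whose summit lay inside a coding gene, for each chromosome and library. On the 7 chromosomes left of the dashed line both swc4Δ libraries lie below both WT libraries, and on XI they lie above.

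How many peaks were kept mattered for this separation. With the 882 highest peaks of each list on the 7 chromosomes, peaks inside genes numbered 114 and 224 in WT against 75 and 138 in swc4Δ, so the genotypes overlapped (exact permutation p = 0.667). These 882 peaks are the whole list of swc4Δ replicate 2. That library thus kept its lowest peaks, while the other lists lost theirs. With a −log10 q of at least 5 they numbered 104 and 114 in WT against 97 and 73 in swc4Δ, and with a fold of at least 2 they numbered 140 and 172 against 103 and 82. The latter setting was chosen after the data were seen. The groups did not overlap at either limit, and the difference of the means was -24 peaks at the first and -63.5 at the second, against -168 with all peaks.

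Most of the difference lay among low peaks. Peaks inside genes with a fold under 2 numbered 131 and 189 in WT against 55 and 56 in swc4Δ, and those with a fold of 2 to 3 numbered 98 and 137 against 48 and 50. Between 3 and 4 there were 24 and 22 in WT against 19 and 12 in swc4Δ. At a fold of 4 or more there were 18 and 13 in WT against 36 and 20 in swc4Δ, so here the mutant libraries held more. Outside genes, peaks at these folds numbered 100 and 59 in WT against 241 and 100 in swc4Δ. Of all peaks at a fold of 4 or more, 15.3% and 18.1% in WT lay inside genes. In swc4Δ these shares were 13.0% and 16.7%, so the genotypes overlapped. Outside genes the peaks with a fold under 2 were alike in number, with 83 and 82 in WT against 74 and 78 in swc4Δ. Among all peaks under 2, those inside genes thus made up 61.2% and 69.7% in WT against 42.6% and 41.8% in swc4Δ.

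**Figure D2:**
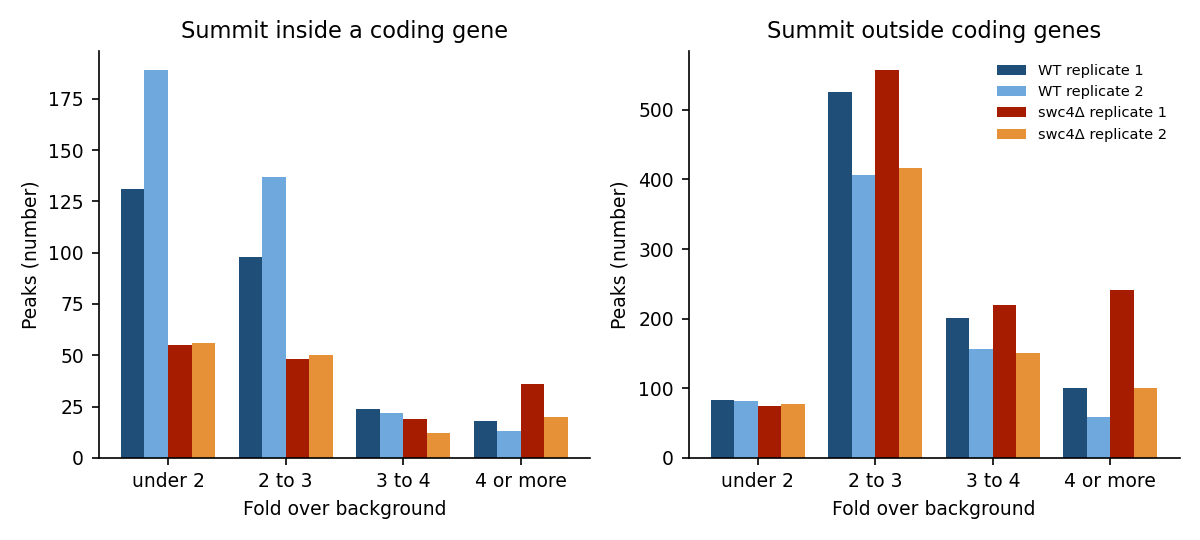
Number of peaks (vertical axis) by deposited fold over background (horizontal axis) in each library, with the summit inside a coding gene on the left and outside on the right. Inside genes the WT bars are the higher ones up to a fold of 4, and at 4 or more the swc4Δ bars are, with 36 and 20 against 18 and 13. Outside genes the bars at 4 or more stand at 241 and 100 in swc4Δ against 100 and 59 in WT.

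With all peaks kept, peaks inside genes had the lower median in every library. Their median fold was 2.03 and 1.96 in WT against 2.29 and 2.08 in swc4Δ. Peaks outside genes had 2.63, 2.48, 2.80 and 2.57 in the same order. The difference was -0.593, -0.520, -0.512 and -0.491, lower in 4 of 4 libraries, with a mean of -0.529 ± 0.0444 (SD, n = 4; exact sign-flip permutation p = 0.125, two-sided, the smallest that 4 libraries allow). Without the lowest peaks the libraries no longer had 1 sign. With a −log10 q of at least 5 the difference was -0.127 and -0.240 in WT against 0.276 and -0.113 in swc4Δ (mean -0.0511, exact sign-flip permutation p = 0.75). With equal numbers of peaks it was -0.233 and -0.440 in WT against 0.749 and -0.491 in swc4Δ (mean -0.104, exact sign-flip permutation p = 0.875). Here swc4Δ replicate 2 kept its whole list, so its value is the one with all peaks. With a fold of at least 2 it was -0.339 and -0.400 against 0.276 and -0.113 (mean -0.144, exact sign-flip permutation p = 0.375). In swc4Δ replicate 1 peaks inside genes were thus the higher ones under these 3 settings, and in the other 3 libraries the lower ones. At the summit the median pileup inside genes was 47 and 48 in WT against 57 and 54 in swc4Δ. The median rank within the whole list, on a scale from 0 to 100, was 20.6 and 23.4 in WT against 30.1 and 32.0 in swc4Δ. A minority was nevertheless very high, and the strongest such peak of each list, at YCH1 in WT replicate 1 and swc4Δ replicate 2, RAX1 in WT replicate 2 and SHR5 in swc4Δ replicate 1, had a fold of 6.06, 5.89, 5.88 and 7.72. Each of these was above the highest peak outside genes on the 7 chromosomes, at 5.68, 5.55, 5.04 and 7.05 in those libraries. RAX1, which acts in bud site selection, was named after its values were seen.

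Peaks inside genes were wider in both swc4Δ libraries than in either WT library. The median width inside genes was 371 and 343 bp in WT against 443.5 and 435.5 bp in swc4Δ, with no overlap (exact permutation p = 0.333, two-sided). Outside genes it was 437 and 430 bp in WT against 400 and 413.5 bp in swc4Δ. The median inside genes minus that outside was -66 and -87 bp in WT against 43.5 and 22 bp in swc4Δ. The mean difference over the 4 libraries was -21.9 ± 64.3 bp (SD, n = 4; exact sign-flip permutation p = 0.50, two-sided). With a −log10 q of at least 5 the difference was 150 and 143.5 bp in WT against 187 and 127 bp in swc4Δ, so peaks inside genes were the wider ones in all 4 libraries and the genotypes overlapped. Widths ran from 200 bp in each library to 3281 and 3588 bp in WT and to 4505 and 3074 bp in swc4Δ.

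Summits were spread over the whole coding sequence, with the highest numbers at the end. On a scale from 0 at the first base to 1 at the last base of the gene, the median position was 0.602 and 0.535 in WT against 0.532 and 0.531 in swc4Δ. WT replicate 1 stood apart from the other 3 libraries. The difference of the means was -0.0371 (exact permutation p = 0.333, two-sided), -0.00385 without WT replicate 1 and 0.00263 with equal numbers of peaks. The middle 50% of summits ran from 0.293 to 0.864 in WT replicate 1 and from 0.231 to 0.779 in swc4Δ replicate 2. With the gene cut into 10 equal parts, the last was the fullest in each library, with 47 and 52 summits in WT against 32 and 21 in swc4Δ, or 17.3%, 14.4%, 20.3% and 15.2%. The first held 30 and 29 in WT against 9 and 15 in swc4Δ, or 11.1%, 8.03%, 5.70% and 10.9%. The median distance from the start codon was 607 and 592 bp in WT against 534 and 436.5 bp in swc4Δ, and from the stop codon 323, 450, 295 and 349.5 bp.

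**Figure D3:**
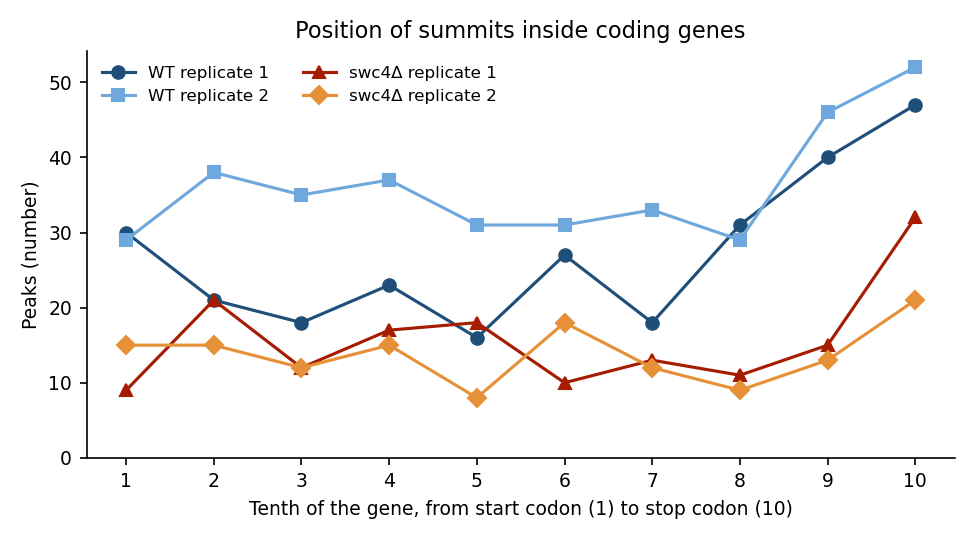
Number of summits (vertical axis) in each of 10 equal parts of the coding gene from start codon to stop codon (horizontal axis), 1 line per library. Each library has its highest number in the last, at 47 and 52 in WT against 32 and 21 in swc4Δ.

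Each summit was then placed by its surroundings. It was called deep when it lay at least 250 bp from both ends of its gene and not within 500 bp upstream of another coding gene. Deep summits numbered 96 and 173 in WT against 61 and 51 in swc4Δ, and their share of 35.4%, 47.9%, 38.6% and 36.96% overlapped between genotypes (exact permutation p = 1.00, two-sided). Summits within 500 bp upstream of another coding gene, where its promoter would lie, numbered 87 and 80 in WT against 54 and 49 in swc4Δ. Those by the gene's own start (under 250 bp from it) numbered 43 and 56 against 21 and 22, and those by its own stop 45 and 52 against 22 and 16. All 4 places had fewer summits in both swc4Δ libraries than in either WT library, as did peaks inside genes as a whole. As shares of those peaks, summits upstream of another gene made up 32.1% and 22.2% in WT against 34.2% and 35.5% in swc4Δ. Those by the own start made up 15.9%, 15.5%, 13.3% and 15.9% in the same order. Summits by the own stop made up 16.6%, 14.4%, 13.9% and 11.6%.

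In every library the summits upstream of another gene were the higher ones and the deep summits the lower. Summits upstream of another gene had median folds of 2.33 and 2.24 in WT against 3.35 and 2.53 in swc4Δ, while deep summits had 1.91 and 1.92 in WT against 1.97 and 1.92 in swc4Δ. Deep summits also lay in longer genes, with median lengths of 1554 and 1668 bp in WT against 1890 and 1677 bp in swc4Δ. Genes with a summit upstream of a neighbour had medians of 753, 850.5, 451.5 and 597 bp. A longer gene has more room at 250 bp from both ends, so this length is partly set by the definition.

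The boundary that the rule uses had summits on both sides. Within 50 bp inside a gene end there were 42 and 39 summits in WT against 19 and 24 in swc4Δ, with median folds of 2.08, 2.04, 2.84 and 2.302. Within 50 bp outside there were 55 and 33 in WT against 52 and 36 in swc4Δ, with median folds of 2.54, 2.32, 2.42 and 2.21.

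The genes that held a summit were of ordinary length. The 3026 coding genes of the 7 chromosomes have a median length of 1203 bp, and the median over peaks inside genes was 1200 and 1407 bp in WT against 1245 and 1182 bp in swc4Δ. Their lengths are multiples of 3 in 96.1% of cases, so the gene coordinates hold the coding span from start to stop codon, introns included, without UTRs. A summit was found in 258 and 327 genes in WT and in 153 and 133 in swc4Δ, which is 8.53%, 10.8%, 5.06% and 4.40% of the coding genes. More than 1 summit lay in 12 and 34 of these in WT and in 4 and 5 in swc4Δ.

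Gene length mattered for density and for height. In the 439 genes of up to 500 bp there were 45 and 47 peaks in WT against 40 and 34 in swc4Δ, or 308, 322, 274 and 233 per Mb of these genes. In the 1150 genes of over 1000 and up to 2000 bp there were 113 and 159 in WT against 58 and 55 in swc4Δ, or 69.0, 97.1, 35.4 and 33.6 per Mb. The 122 genes of over 4000 bp held 7 and 15 in WT against 9 and 6 in swc4Δ. The genotypes overlapped in the longest class and were close in the shortest, while in all genes of over 500 bp together there were 226 and 314 in WT against 118 and 104 in swc4Δ. The share in genes of over 500 bp was 83.4% and 86.98% in WT against 74.7% and 75.4% in swc4Δ, without overlap (exact permutation p = 0.333, two-sided).

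**Figure D4:**
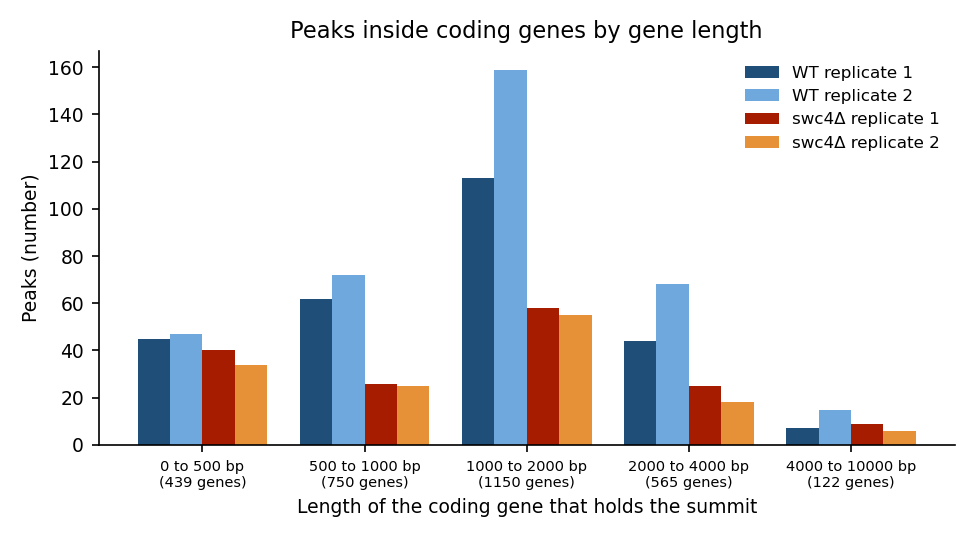
Number of peaks with the summit inside a coding gene (vertical axis) by the length of that gene (horizontal axis, with the number of genes in each class), 1 bar per library. In genes of up to 500 bp the 4 bars lie between 34 and 47, and in genes of over 500 and up to 4000 bp both WT bars stand above both swc4Δ bars.

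The short genes held many of the high peaks. In genes of up to 500 bp the median fold was 3.09 and 2.64 in WT against 4.18 and 3.70 in swc4Δ, against 1.95 and 1.92 in WT against 2.09 and 1.96 in swc4Δ in genes of over 1000 and up to 2000 bp. Of the 20 highest peaks inside genes in each library, 11 and 12 in WT against 12 and 14 in swc4Δ lay in genes of up to 500 bp, 10, 10, 11 and 10 lay within 500 bp upstream of another gene and 1, 2, 1 and 2 were deep. Genes known only by a systematic name, with no standard name in the RefSeq table, make up 377 of the 3026 coding genes, and they held 52 and 51 of the peaks in WT against 40 and 32 in swc4Δ. Their median fold was 2.39 and 2.28 in WT against 3.70 and 2.70 in swc4Δ. Peaks in genes with a standard name numbered 219 and 310 in WT against 118 and 106 in swc4Δ, at median folds of 1.99, 1.96, 2.09 and 2.00. YBL044W shows the pattern. It is 1 such reading frame on chromosome II, its region ran from 135609 to 136484, and its folds were 4.32 and 3.96 in WT against 5.83 and 4.53 in swc4Δ. It was named after its values were seen.

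With all peaks kept, those inside genes were found again less regularly than the others. A peak of the other library of the genotype overlapped 66.4% and 60.9% of them in WT against 60.8% and 81.9% in swc4Δ. For peaks outside genes these shares were 76.5%, 94.9%, 66.0% and 98.5%. The difference was -10.04, -33.9, -5.24 and -16.6 points, lower in 4 of 4 libraries (mean -16.5 ± 12.6, SD, n = 4; exact sign-flip permutation p = 0.125, two-sided). With a −log10 q of at least 5 it was -2.47 and -17.95 points in WT against 13.6 and -1.11 in swc4Δ (mean -1.99, exact sign-flip permutation p = 0.625), and with a fold of at least 2 it was -13.1 and -30.1 against 9.79 and -3.38 (mean -9.20, exact p = 0.375). With equal numbers of peaks it was -0.384 and -36.6 against 14.2 and -27.97 (mean -12.7, exact p = 0.375). In swc4Δ replicate 1 the peaks inside genes were then found again more often than the others. Between genotypes the share found again inside genes overlapped (exact permutation p = 1.00, two-sided). In numbers, 180 of 271 and 220 of 361 were found again in WT and 96 of 158 and 113 of 138 in swc4Δ. Least often found again were the deep summits of WT replicate 2, at 41.6% of 173. Those upstream of another gene in the same library reached 91.3%.

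To compare places, peaks of all 4 libraries that shared at least 1 bp were merged into regions. The 7 chromosomes had 346 regions in which every summit lay inside a coding gene, 153 in which some did, and 1042 in which none did. Of these, 126, 140 and 703 were reproducible, that is, held a peak in each library of 1 genotype or of both, which is 36.4%, 91.5% and 67.5%. Regions with summits on both sides of a gene boundary were counted apart, since 28.4% and 30.5% of the peaks inside genes in WT against 24.7% and 36.96% in swc4Δ belonged to one.

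Regions inside genes that were present in a single genotype were mostly WT regions. Of the 126 reproducible regions with every summit inside a gene, 40 held a peak in both WT libraries and in no swc4Δ library, and 3 the reverse. The corresponding background over all 969 reproducible regions of the 7 chromosomes was 6.09% for WT only and 5.37% for swc4Δ only, and over the 2181 of all 16 chromosomes it was 4.22% and 14%. Inside genes the shares were 31.7% and 2.38%. Outside genes the balance was the opposite, with 13 WT-only and 47 swc4Δ-only regions of 703, or 1.85% and 6.69%. Regions with some summits inside genes held 6 and 2 of 140. Of the 59 WT-only regions on these chromosomes, 40 lay wholly inside genes in this sense. These are counts without a test, and a region of few peaks is more easily placed wholly inside genes than 1 with many.

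The count of 40 rested on low peaks. The WT-only regions had folds of 1.74 to 2.80 in WT replicate 1 and 1.68 to 2.52 in WT replicate 2, with medians of 1.95 and 1.94, not far above the lowest fold that was called. They numbered 6 with a −log10 q of at least 5, 12 with equal numbers of peaks and 8 with a fold of at least 2. The swc4Δ-only regions numbered 3, 3 and 2 under these settings. The share over all regions is not given for these settings, so the counts do not show whether the excess inside genes held. The WT-only regions numbered 166 without WT replicate 1, 108 without WT replicate 2 and 70 without swc4Δ replicate 1. The swc4Δ-only regions numbered 8, 8 and 15 in the same order and 22 without swc4Δ replicate 2. A genotype with 1 library left needs a peak, or the lack of one, in that library alone. Leaving out a library thus loosens the call by its definition. WT-only regions outnumbered the swc4Δ-only ones in each of these settings on the 7 chromosomes. The counts without 1 library have no share over all regions beside them either. Over all 16 chromosomes the regions inside genes numbered 60 WT-only against 76 swc4Δ-only. Of all 2181 reproducible regions there, 92 were WT-only and 305 swc4Δ-only.

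**Figure D5:**
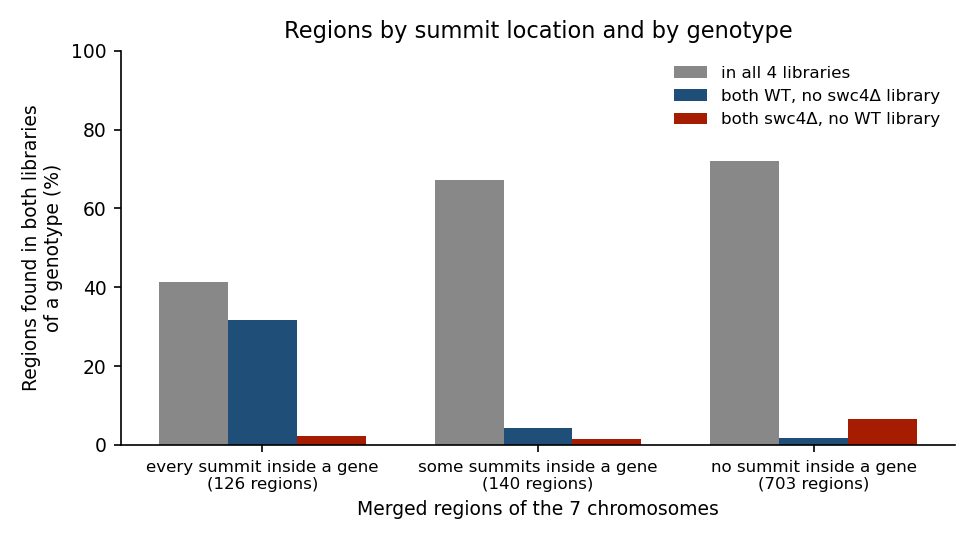
Share (percent, vertical axis) of the reproducible merged regions that were present in all 4 libraries, in both WT and no swc4Δ library, or in both swc4Δ and no WT library, for 3 kinds of region (horizontal axis). Regions with every summit inside a gene stand out by 31.7% WT only, against 1.85% where no summit lay inside a gene.

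WT-only regions lay on each of the 7 chromosomes, with 9 on X, 8 each on XIII and XVI, 7 on VII, 4 on II and 2 each on IX and XV. The 3 swc4Δ-only regions all lay on XV. In the WT-only regions 35 of 40 peaks (87.5%) of either WT library lay in genes with a standard name. This was near the share among all coding genes of the 7 chromosomes, of which 12.5% have only a systematic name. In the WT-only regions the median gene length was 1404 bp and the median position was 0.679 and 0.678. Regions found in both libraries of 1 genotype and 1 of the other were similar in this. There 92.6% and 100% of the WT peaks lay in genes with a standard name, at median lengths of 1548 and 1581 bp. The regions present in all 4 libraries were of another make: 34 of 56 and 38 of 59 WT peaks lay in genes with a standard name, the median gene length was 739.5 and 805 bp, and the median folds were 3.16 and 2.52 in WT against 3.94 and 2.79 in swc4Δ.

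The promoters of the genes with WT-only regions were compared next. The choice of regions limits this readout, since a region that also held a summit outside coding genes was left out. A region touched by a swc4Δ peak was not WT-only either. Of the 40 genes, 18 and 14 had a summit in the 500 bp upstream of their own start in WT against 18 and 14 in swc4Δ. The number was therefore the same in the 2 genotypes at the promoters of the genes that held a WT-only region. Such a gene could still hold a swc4Δ peak elsewhere, as PRC1 did in swc4Δ replicate 1, with a fold of 1.81. For all coding genes without a peak inside, the shares were 34.7% and 26.7% in WT against 40.7% and 27.3% in swc4Δ, and replicate 1 of each genotype was the higher. The 58 genes in regions present in all 4 libraries had a summit in their own upstream stretch in 10.3% of cases in both WT libraries and in 15.5% and 13.8% in swc4Δ. These regions, too, were kept only with every summit inside a gene, which can lower the share by definition.

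The 8 highest WT-only regions, by their rank within the lists, lay in TIM54, NPA3, BBC1, MAK3, OLE1, MTO1, RPL3 and YMC1. In 4 of these the summit lay at least in 1 library within 500 bp upstream of a neighbour. TIM54 (YJL054W), a subunit of a mitochondrial inner membrane translocase, had its summits 30 and 34 bp from its stop codon, upstream of PEP8, a retromer subunit, with folds of 2.63 and 2.40 (X, 335365 to 335816). NPA3 (YJR072C), a GTPase needed for the nuclear import of RNA polymerase II, had folds of 2.54 and 2.32 by its stop, and the summit of WT replicate 2 lay upstream of LIA1, the deoxyhypusine hydroxylase (X, 570636 to 571515). MTO1 (YGL236C), which modifies mitochondrial tRNAs, had folds of 2.25 and 2.16 upstream of HAP2, a subunit of the Hap transcription factor of respiratory genes (VII, 53654 to 54026). MAK3 (YPR051W), the catalytic subunit of the NatC N-terminal acetyltransferase, had folds of 2.41 and 2.12 upstream of ATG11, a scaffold of selective autophagy (XVI, 664765 to 665314).

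In the other 4 no summit lay upstream of a neighbour. BBC1 (YJL020C), a protein of cortical actin patches, had its summits at 61.4% and 62.1% of its 3474 bp, with folds of 2.08 and 2.52 (X, 399797 to 400382). They lay 1339 and 1318 bp from the stop codon. RPL3 (YOR063W), a protein of the large ribosomal subunit, had summits at 68.5% and 66.9% with folds of 1.95 and 2.32 (XV, 445345 to 445727). OLE1 (YGL055W), the fatty acid desaturase, had folds of 2.80 and 1.84, but the summits lay at 37.6% and 61.6% of the gene and so marked different places within 1 merged region (VII, 399043 to 399703). YMC1 (YPR058W), a carrier of the mitochondrial inner membrane, likewise had its summits apart, at 19.4% and 46.0%, with folds of 2.25 and 1.92 (XVI, 673532 to 674292).

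The swc4Δ-only regions lay in CMK2, GPB1 and PHM7. CMK2 (YOL016C), a calmodulin-dependent protein kinase, had folds of 1.62 and 2.19 with summits at 40.9% and 55.2% of the gene (XV, 295217 to 295603). GPB1 (YOR371C), a regulator of the cAMP and protein kinase A pathway, had folds of 2.17 and 1.77, 53 and 46 bp from its stop codon (XV, 1031400 to 1031931). PHM7 (YOL084W) had folds of 1.73 and 1.85 at 18.8% and 18.6% of the gene (XV, 162800 to 163240). All 3 were low peaks, like the WT-only ones.

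Among reproducible regions with every summit inside a gene, the highest by mean rank were those present in all 4 libraries. The first covered YCH1 (YGR203W, VII, 905237 to 905683), with folds of 6.06 and 5.56 in WT against 7.61 and 5.89 in swc4Δ. Its summits lay 56 to 82 bp before the stop codon and within 500 bp upstream of ADE3, an enzyme of one-carbon metabolism. SHR5 (YOL110W), a subunit of the enzyme that attaches palmitate to Ras, had folds of 5.25 and 5.04 in WT against 7.72 and 5.85 in swc4Δ at 58.5% to 67.6% of its 714 bp (XV, 108870 to 110231). NAT4 (YMR069W), which acetylates the N termini of histones H4 and H2A, had folds of 5.25 and 5.36 in WT against 7.53 and 5.47 in swc4Δ at 75.5% to 89.7% of the gene (XIII, 407525 to 408926). In each of these genes swc4Δ replicate 1 held the highest fold.

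Others of this group showed summits at the edge of a neighbour or a long open stretch. SCS3 (YGL126W), a protein of lipid droplet formation, had folds of 5.89 and 5.40 in WT against 6.90 and 5.36 in swc4Δ 98 to 138 bp before its stop codon, upstream of MET13, a methylenetetrahydrofolate reductase, in 3 of the 4 libraries (VII, 270416 to 273294). ART5 (YGR068C), an arrestin-like adaptor for the ubiquitination of membrane proteins, had folds of 5.08 and 4.80 in WT against 6.78 and 4.83 in swc4Δ, 52 to 94 bp before its stop codon (VII, 625006 to 625738). HTC1 (YPL067C) had 5.08 and 5.08 in WT against 6.34 and 5.21 in swc4Δ (XVI, 425023 to 426208). PUT4 (YOR348C), the proline permease, had folds of 5.00 and 4.80 in WT against 6.23 and 4.87 in swc4Δ. Its peaks were 2677 to 2772 bp wide and reached from the gene into the stretch upstream, with summits at 10.8% to 29.9% of the gene (XV, 986955 to 989756). CUE4 (YML101C) had folds of 4.91 and 5.00 in WT against 6.11 and 4.76 in swc4Δ, and the same region ran on over TSL1, a subunit of the trehalose synthase complex (XIII, 69311 to 73835). TSL1 held summits of its own in both WT libraries and in swc4Δ replicate 2, at folds of 1.80 to 2.52. In swc4Δ replicate 1 the peak with its summit in CUE4 was 4505 bp wide, ran to 73815 and covered most of TSL1.

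Of the 44 regions that were present in all 4 libraries with 1 summit in each, the 4 summits lay within 100 bp of each other in 29. The median distance between the outermost summits was 64.5 bp, with a range of 10 to 375 bp.

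Of the 126 reproducible regions inside genes, 41 had deep summits throughout, and 9 of these were present in all 4 libraries, against 43 of the other 85. The 6 highest of the 9 lay in WHI5, ALD4, UGA1, CSS1, LCB1 and UGA2. WHI5 (YOR083W), the repressor that holds cells in G1, was the highest, with folds of 3.43 and 2.92 in WT against 4.53 and 3.40 in swc4Δ and all 4 summits at 54.3% to 55.7% of its 888 bp (XV, 479629 to 480959). ALD4 (YOR374W), the mitochondrial aldehyde dehydrogenase, had 2.33 and 1.88 in WT against 3.86 and 2.98 in swc4Δ at 51.6% to 57.2% of the gene, so that both mutant libraries stood above both WT libraries (XV, 1040376 to 1040959). At the summit this was a pileup of 54 and 46 in WT against of 97 and 78 in swc4Δ.

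UGA1 and UGA2 code for successive enzymes of 4-aminobutyrate breakdown, the transaminase and the succinate semialdehyde dehydrogenase. UGA1 (YGR019W) had folds of 2.33 and 2.48 in WT against 3.15 and 2.23 in swc4Δ, with summits from 33.5% to 56.5% of the gene (VII, 525231 to 526279). UGA2 (YBR006W) had 1.95 and 1.96 in WT against 2.17 and 2.23 in swc4Δ, with all summits at 30.6% to 32.6% (II, 247254 to 247658). CSS1 (YIL169C) had 2.37 and 2.24 in WT against 2.29 and 2.08 in swc4Δ at 48.1% to 60.7% of its 2988 bp (IX, 23622 to 25133). LCB1 (YMR296C), a subunit of serine palmitoyltransferase, had summits at 75.1% and 76.0% of the gene in WT, with folds of 2.03 and 2.32. In swc4Δ they lay at 41.7% and 39.9%, with folds of 2.21 and 1.92 (XIII, 859240 to 860471). WT replicate 1 had a further summit in LCB1 at 34.2% of the gene, with a fold of 1.91.

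Gene lists were read beside the share of all coding genes with a summit inside, which was 8.53% and 10.8% in WT against 5.06% and 4.40% in swc4Δ. Among 12 highly transcribed genes on these chromosomes, 5 and 5 held a summit in WT against 4 and 1 in swc4Δ. PMA1 (YGL008C), the plasma membrane proton pump, was the one with a summit in all 4 libraries. There a peak of 2102 and 2093 bp in WT covered most of the 2757 bp gene, with folds of 2.37 and 2.24, while swc4Δ replicate 1 had 3 separate peaks of 1.89, 1.89 and 2.29 and swc4Δ replicate 2 a peak of 1722 bp at 2.15. HSC82 (YMR186W), an Hsp90 chaperone, was WT only, with folds of 1.86 and 1.80 at 64.5% and 80.5% of the gene. Its near copy HSP82 (YPL240C) had 2.48 in WT replicate 2, 5 bp from its stop codon, and 1.81 in swc4Δ replicate 1. PGI1 (YBR196C), the glucose-6-phosphate isomerase, had 2.08 in WT replicate 1, 1.92 and 1.88 in WT replicate 2 and 2.17 in swc4Δ replicate 1. TDH1 (YJL052W) had 2.37 in WT replicate 1 and 1.77 in swc4Δ replicate 1, and TDH2 (YJR009C) had 1.99 in WT replicate 1 and 2.04 and 1.80 in WT replicate 2, both coding for glyceraldehyde-3-phosphate dehydrogenase. These paralogs share long stretches of sequence, and the handling of reads with several matches is not known from the sources used here.

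Cytosolic ribosomal protein genes rarely held a summit: 3 and 3 of 70 in WT against 1 and 0 in swc4Δ. Besides RPL3, RPS14B (YJL191W) was found in more than 1 library, with folds of 2.33 and 2.16 in WT and 1.69 in swc4Δ replicate 1, all by the stop codon, and it too has a close copy. Of 8 genes for wall or surface proteins with internal repeats, 0 and 4 held a summit in WT against 1 and 1 in swc4Δ. FLO11 (YIR019C), the flocculin, had 2.28 in WT replicate 2 and 1.89 and 1.70 in the swc4Δ libraries at 81.0% to 90.8% of its 4104 bp, and repeats within such genes add to the doubt about read placement. Of 4 genes known for cryptic start sites within the gene, AVO1, a TORC2 subunit named after its values were seen, held a summit in swc4Δ replicate 2 and the others held none.

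The genes with the most separate regions were ADE57, GSC2, MTO1, PRC1 and TRM9, with 3 regions each. GSC2 (YGR032W), a glucan synthase subunit and the longest of them at 5688 bp, had a region 99 to 140 bp from its start codon, with folds of 2.29 and 1.96 in WT and 2.05 in swc4Δ replicate 1. Its other regions lay at 90.1% of the gene in WT replicate 1, with a fold of 1.78, and at 98.0% and 95.3% in WT replicate 2 and swc4Δ replicate 1, with folds of 2.04 and 1.81. TRM9 (YML014W), a tRNA methyltransferase, had a region 12 to 45 bp before its stop codon, upstream of UBX2, in each of the 4 libraries, at folds of 3.05 and 2.56 in WT against 3.15 and 2.53 in swc4Δ. PRC1 (YMR297W), carboxypeptidase Y, had a WT-only region by its stop codon, with folds of 1.95 and 1.80. ADE57 (YGL234W), an enzyme of purine synthesis, had low summits at 17.9% to 22.8% of the gene in 3 libraries, with folds of 1.76 in WT replicate 2 and 1.85 and 1.70 in swc4Δ. They fell in a region shared with MTO1, whose summit in WT replicate 2 had a fold of 2.72.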

How the data were processed

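The deposited files were 1 narrowPeak list per library and 2 genotype lists of the whole series. The submitters' processing notes list the sacCer3 build and, with no role or order, deepTools 1.5.11, SAMtools 1.4, Picard 2.18.7, Bowtie2 2.3.1 and Trim Galore 0.5.0. Not given in the sources used here are the peak caller, its settings and any Tn5 shift. Each list's peak names bear 1 library's name, so the authors called peaks library by library. Every deposited peak has a summit, a −log10 q-value, a −log10 p-value and a fold, which is a ratio to background. The genotype lists hold a deposited score per region. Their genotype was read from a code shared with the library lists.

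Folds were whole steps of 1 ladder per library (100% within 0.01 of a step). With the background of that ladder, a Poisson tail gave back the deposited −log10 p-values within 0.000157, which gave the pileups. A summit was the peak start plus the summit offset, and a summit inside 2 genes (1 to 3 per library) went to the longer gene. Genes and strands came from the RefSeq table of R64, strand from the systematic name. Genotypes were compared over 2 against 2 libraries by an exact permutation test, and peaks inside genes with others by an exact sign-flip permutation test over 4 libraries, both two-sided. Alternatives were −log10 q of at least 5, equal peak numbers, each library left out, summits at least 150 bp from gene ends, none upstream of another gene, none inside 2 genes, a 50% overlap, summits with 100 bp on each side and a replicate block. Added after seeing the data were all 16 chromosomes, 12 chromosomes without IV, V, VIII and XI, a fold of at least 2 and genes with a standard name. The code was tested on simulated peaks (Python 3.11.15, pandas 2.3.3).

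Regions were named by mean rank of fold (up to 8 in all 4 libraries, 8 per genotype-only call and 6 deep). Then came list genes with a summit in at least 2 libraries and the genes with the most regions (5 tied). The members, lists and rules were chosen with earlier results of these data known. Sequences are not shown, since a genome was not used here.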

Additional observations from a re-analysis of the deposited data

How the results depend on the processing

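The number and the share of peaks inside genes kept the sign of their difference under every alternative run, and both were smallest with −log10 q of at least 5 (-24 peaks and -4.81 points). Their fold and share found again against other peaks kept the sign of the mean over libraries, but not of each library: with −log10 q of at least 5, equal numbers or a fold of at least 2, swc4Δ replicate 1 was positive for both, as was the swc4Δ mean of fold (0.0813, 0.129 and 0.0813) and, in the first and last setting, of the share found again (6.24 and 3.21 points). Without 1 library the differences (swc4Δ minus WT) ranged from -213 to -123 peaks, -19.7 to -8.82 points of share and -0.0703 to -0.00385 of position. The cause of the changes below was not tested.

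Median gene length (-90 bp) was 63 bp without summits upstream of another gene, 135 bp on all 16 chromosomes, 19.5 bp in genes with a standard name, and -193.5 to 13.5 bp without 1 library. The deep share (-3.89 points) was 0.796 with −log10 q of at least 5, 0.0820 with summits 150 bp from gene ends, 1.11 without summits upstream of another gene, 4.59 on 16 chromosomes, 1.58 in genes with a standard name, and -10.1 to 2.36 without 1 library. Position was 0.00263 with equal numbers of peaks. The share found again (7.64 points) was -2.14 on 16 chromosomes. Width against other peaks (-21.9 bp) was 152, 100.2 and 102 bp with −log10 q of at least 5, equal numbers and a fold of at least 2.

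WT-only regions (40) were 6, 12 and 8 in these same 3 settings, as counts without a share. They were 43 to 166 without 1 library, where the call is looser by its definition. swc4Δ-only regions (3) were 8 with summits of 100 bp on each side, 76 on 16 and 9 on 12 chromosomes, and 8 to 22 without 1 library. On 16 chromosomes 305 of all 2181 reproducible regions were swc4Δ-only. With the replicate block, summed over both numbers, WT-only and swc4Δ-only regions were 283 and 51, and the block left the differences of -168 peaks and -14.3 points as they were (exact sign-flip permutation p = 0.50, the smallest for 2 pairs). Same-numbered libraries shared little: over 1020 regions the differences between replicates of the genotypes correlated at 0.0366, so the numbers were not taken to pair them. The least summit pileup that was called was 37 to 40.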

Other observations

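Of the authors' genotype lists, which have no replicates and differ in length, the WT list held 494 regions on the 7 chromosomes and the swc4Δ list 1178. The midpoint lay inside a coding gene for 152 of the former (30.8%) and 236 of the latter (20.0%). In the authors' deposited lists the median score of the regions inside genes was 187.5 in WT and 192.5 in swc4Δ, against 311.5 and 245 for those outside. The WT list touched 34 of the 52 regions that were present in all 4 libraries with every summit inside a gene, and the swc4Δ list touched 48. Each list touched 8 of the 40 WT-only regions, so the genotype lists did not separate them. Of the 3 swc4Δ-only regions the WT list touched 0 and the swc4Δ list 1.

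Peaks with a summit inside a coding gene seldom overlapped a tRNA gene, with 4 and 5 in WT against 5 and 4 in swc4Δ, while 89 and 61 of the peaks outside coding genes in WT against 115 and 74 in swc4Δ did. They were spread over both strands, with 142 and 188 in WT against 77 and 71 in swc4Δ in genes of the forward strand, and 129, 173, 81 and 67 in genes of the reverse strand.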
